A study of Mus musculus with 6 samples.

Results

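The inhibitors of metalloproteinases and the plasminogen system of mouse skin were followed through 9 genes, taken by name from the deposited table of 55291 genes. They were the 4 tissue inhibitors of metalloproteinases Timp1, Timp2, Timp3 and Timp4, the membrane-anchored inhibitor Reck, the plasminogen activators Plau and Plat, the activator receptor Plaur and the activator inhibitor Serpine2. RNA of dorsal skin from mice at day 40 was sequenced in 6 libraries, 3 of wild-type C57BL/6 mice (replicates 1 to 3) and 3 of strain B6.Cg-Fbn1Tsk/J (replicates 4 to 6), called Tsk here. The labels write the Tsk genotype as Fbn1+/-, whereas the tight-skin allele is known as an internal duplication in Fbn1, the gene of the microfibril protein fibrillin 1, so heterozygosity for that allele is an assumption. Neither group is labelled with a further allele or treatment, and the labels do not say that each sample came from a separate mouse, which makes the p-values a measure of sample-to-sample spread alone. Whole skin strips were used, so each value is an average over epidermis, follicles, dermis, fat, vessels and the muscle beneath, and a change in the number of cells of a type cannot be told apart from a change in RNA per cell.

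Metalloproteinases cut collagens, proteoglycans and cell surface proteins, and TIMP proteins block them by seating their amino-terminal end in the catalytic site. TIMP-2 is also known to link pro-MMP-2 to the membrane protease MMP-14 for activation, TIMP-3 binds the matrix and also blocks ADAM and ADAMTS proteases, and RECK is anchored in the membrane and restrains MMP-2, MMP-9 and MMP-14. The plasminogen system is the serine protease arm of matrix turnover: the activators urokinase (Plau) and tissue-type plasminogen activator (Plat) turn plasminogen into plasmin, which digests fibrin and can activate metalloproteinases. Urokinase acts at the cell surface on its receptor (Plaur), and protease nexin-1 (Serpine2) inhibits both activators and thrombin.

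Library totals ran from 17561271 to 19219622 counts. Fbn1 stood at 303 ± 45.6 CPM in wild type and 1761 ± 302 CPM in Tsk (SD, n = 3 each), a log2 fold change of 2.54 ± 0.24 (SE, adjusted p = 0.00401 by edgeR), and the gene count does not tell the alleles apart. CPM here is the count over the library total times its TMM factor (an allowance for differences in composition), on the usual CPM scale. None of the 90 cell type marker genes examined stood at 0 in all 6 libraries, and the keratinocyte genes expected of skin summed to 9107, 6035 and 6638 CPM in wild type and 8031, 4994 and 4645 CPM in Tsk. Summed levels of 10 genes each were wholly lower in the Tsk libraries for skeletal muscle, at 137309, 247317 and 217584 CPM in wild type and 130596, 116616 and 109026 CPM in Tsk, and wholly higher in them for fibroblasts, at 4058, 6088 and 6757 CPM in wild type and 13179, 11780 and 30357 CPM in Tsk. Of the 10 fibroblast markers, 3 rose, and all 10 had log2 fold changes above 0. Col1a1 and Col1a2 made up most of the fibroblast sum, at 20075 and 9364 of 30357 CPM in Tsk replicate 6. Neither of these 2 genes passed (edgeR adjusted p = 0.0613 and 0.0812). The mean log2 CPM of the 10 fibroblast genes was also wholly higher in Tsk, at 5.57, 6.20 and 6.13 in wild type and 6.83, 7.02 and 7.58 in Tsk. Over all 19971 genes tested, 2.72% rose and 9388 had log2 fold changes above 0. The same background applies to each marker list named below. None of the 10 skeletal muscle markers passed the edgeR test after adjustment, 8 of them with log2 fold changes below 0. The muscle separation held for the sum, of which Ttn and Myh4 made up most, while the mean log2 CPM of the 10 genes overlapped, at 11.74, 12.72 and 12.49 in wild type and 11.95, 11.84 and 11.74 in Tsk. Sums were also wholly higher in Tsk for the endothelial, macrophage, nerve and dermal papilla lists. The mean log2 CPM of the macrophage genes overlapped, at 4.68, 3.90 and 4.56 in wild type and 4.17, 4.49 and 5.40 in Tsk. The smooth muscle sum, of which Des made up most, was wholly lower, although 8 of its 10 genes had log2 fold changes above 0. Their mean log2 CPM was wholly higher in Tsk, at 5.11, 5.59 and 5.29 in wild type and 5.81, 5.93 and 5.78 in Tsk. Sums of the adipocyte and keratinocyte lists overlapped. The mean log2 CPM overlapped for the keratinocyte genes too. For the adipocyte genes it was wholly higher in Tsk, at 4.40, 4.79 and 4.36 in wild type and 5.92, 7.88 and 5.44 in Tsk. The part of these shifts in the results below was not tested.

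In Tsk skin, 3 of the 9 genes rose, namely Plat, Reck and Timp2, and none fell. All 9 had enough counts to be tested. The median log2 fold change of the 9 was 0.69, against -0.03 over all 19971 genes tested. The 9 genes and the lists below were chosen with earlier results of these data known. Shares and medians set beside those of all genes therefore describe them and are not a test. A gene was called changed at an edgeR adjusted p under 0.05 (quasi-likelihood test, Benjamini-Hochberg over all genes tested). Over all genes, 3.42% were called, 2.72% higher and 0.696% lower in Tsk. The 3 Tsk libraries lay wholly above the 3 wild-type libraries for Plat, Reck, Timp2 and Timp3 and wholly below for none of the 9, where 14.1% of all genes tested lay wholly above and 10.6% wholly below (24.7% together). By an unadjusted edgeR p under 0.05 the same 4 genes were higher and 0 were lower, beside 12.1% of all genes higher and 7.94% lower (20.1% together). DESeq2 called 4 of the 9 higher and 0 lower, beside 5.79% and 2.18% of the 19965 genes to which it gave an adjusted p. The count of 3 became 1 when wild-type replicate 3 or Tsk replicate 6 was left out, and Plat was the gene that passed in both fits.

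**Figure D1:**
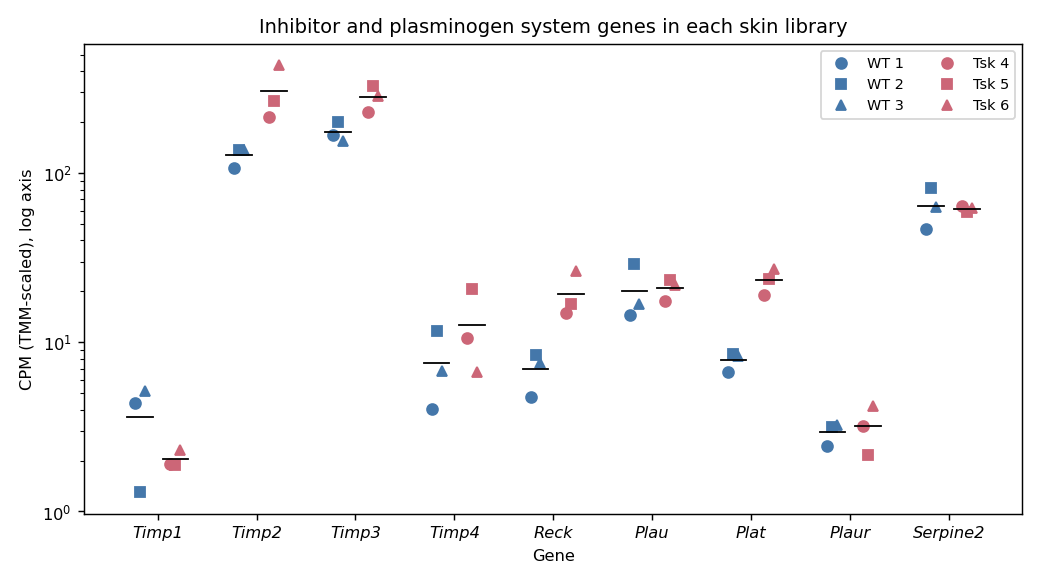
CPM after TMM scaling (log axis) of the 9 genes in each of the 6 libraries, wild type in blue and Tsk in red, with a marker shape per replicate and a black line at each group mean. The Tsk points of Plat, Reck, Timp2 and Timp3 lie above every wild-type point, and those of the other 5 genes overlap the wild-type points.

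Timp2, on chr11:118301069-118355740 of the mm10 build, minus strand, stood at 107, 138 and 137 CPM in wild-type replicates 1, 2 and 3 and at 216, 268 and 434 CPM in Tsk replicates 4, 5 and 6. The groups did not overlap, and Tsk replicate 6 was the highest of all. The means were 127 ± 17.4 and 306 ± 114 CPM (SD, n = 3 each), a log2 fold change of 1.27 ± 0.26 (SE, adjusted p = 0.0369 by edgeR). The direction held in each fit that left out 1 library, but the call rested on nearly all of them. It was lost without wild-type replicate 1 at 1.18 (edgeR adjusted p = 0.0592), replicate 2 at 1.33 (edgeR adjusted p = 0.0859) or replicate 3 at 1.34 (edgeR adjusted p = 0.132). It was also lost without Tsk replicate 5 at 1.35 (edgeR adjusted p = 0.0626) or replicate 6 at 0.93 (edgeR adjusted p = 0.0603), and kept without Tsk replicate 4. The fibroblast marker sum was likewise highest in Tsk replicate 6, and its part in the Timp2 values was not tested.

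Reck (chr4:43875530-43944806, plus strand) encodes a membrane-anchored glycoprotein that also acts as a co-receptor for Wnt7 ligands. It stood at 4.73, 8.42 and 7.58 CPM in wild type and 14.9, 16.8 and 26.4 CPM in Tsk, from 85, 130 and 122 counts in the wild-type libraries and 287, 359 and 560 in Tsk. As for Timp2, Tsk replicate 6 was the highest library, and the lowest Tsk value was 1.77 times the highest wild-type value. The log2 fold change was 1.49 ± 0.28 (SE, adjusted p = 0.0285 by edgeR). It did not pass without wild-type replicate 3, at 1.58 (edgeR adjusted p = 0.1), or without Tsk replicate 6, at 1.20 (edgeR adjusted p = 0.0603), and passed in the other 4 such fits.

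Timp3 (chr10:86300372-86349506, plus strand), the matrix-bound inhibitor, stood at 168, 202 and 155 CPM in wild type and 231, 327 and 286 CPM in Tsk. The groups did not overlap, with a narrow gap, since the lowest Tsk value was 1.15 times the highest wild-type value. Its log2 fold change of 0.69 ± 0.18 (SE) did not pass (edgeR adjusted p = 0.0815), nor in any fit that left out 1 library. It passed by DESeq2 (adjusted p = 0.00545), without the filter on low counts (edgeR adjusted p = 0.0392), by limma-trend on the deposited CPM (adjusted p = 0.00981), and with library totals alone as the scaling, where its log2 fold change was 0.97 and the median of all genes moved from -0.03 to 0.25.

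Timp1 and Timp4 were scarce and uneven. Timp1 (chrX:20870166-20874735, plus strand), the TIMP best known for induction by inflammation and growth factors, held 79, 20 and 83 counts in the wild-type libraries and 37, 40 and 49 in Tsk, or 4.40, 1.30 and 5.16 CPM and 1.92, 1.87 and 2.31 CPM. Wild-type replicate 2 was the lowest library, the other wild-type libraries the highest, and the 3 Tsk libraries lay between them. Its log2 fold change was -0.83 ± 0.44 (SE, adjusted p = 0.332 by edgeR), and -1.22 without wild-type replicate 2 (edgeR adjusted p = 0.0526). Timp4 (chr6:115241892-115252205, minus strand), a TIMP found in heart and fat, stood at 4.06, 11.7 and 6.77 CPM in wild type and 10.6, 20.8 and 6.63 CPM in Tsk. Its highest library was Tsk replicate 5, and the groups overlapped. The log2 fold change was 0.76 ± 0.47 (SE, adjusted p = 0.425 by edgeR) and 0.20 without Tsk replicate 5. Beside it, the 10 adipocyte markers summed to 558, 1008 and 754 CPM in wild type and 1286, 4315 and 937 CPM in Tsk, also highest in Tsk replicate 5. All 10 adipocyte markers had log2 fold changes above 0 and 2 of them rose, and their part in the Timp4 values was not tested.

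The RefSeq promoter table (GRCm38.p6, the assembly of mm10) held 7 of the 9 genes, all except Plau and Plat. Its starts differ from the counted gene models for some of them. The 250 bases before the RefSeq start lay wholly inside the gene span for Timp2 and Serpine2 and held 40 bases of it for Timp3, so these 3 windows are not described. The windows of Reck, Timp1, Timp4 and Plaur lay wholly outside the span. They are shown for Reck, the only one of these 4 genes that rose, and for Timp4, whose groups overlapped. Capitals mark the GC box GGGCGG on either strand.
Reck, chr4:43875280-43875529, plus strand: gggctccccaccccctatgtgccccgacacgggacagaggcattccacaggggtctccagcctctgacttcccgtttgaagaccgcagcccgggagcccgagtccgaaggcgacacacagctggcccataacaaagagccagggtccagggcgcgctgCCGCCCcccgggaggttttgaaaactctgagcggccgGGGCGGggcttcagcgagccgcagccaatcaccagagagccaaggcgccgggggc
Timp4, chr6:115252206-115252455, minus strand: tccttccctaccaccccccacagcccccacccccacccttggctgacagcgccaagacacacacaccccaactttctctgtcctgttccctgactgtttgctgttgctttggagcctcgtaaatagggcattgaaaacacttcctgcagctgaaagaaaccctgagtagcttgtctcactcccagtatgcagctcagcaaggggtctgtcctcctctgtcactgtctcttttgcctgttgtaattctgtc
The window of Reck was 68.4% G and C with 19 CpG dinucleotides and that of Timp4 53.6% with 2. That of Timp1 had 54.4% and 6, and that of Plaur 59.6% and 6. Over all 32851 windows of this length the medians were 52.4% and 6 CpG. The GC box occurred 3 times in the window of Plaur, 2 times in that of Reck, 1 time in that of Timp1 and 0 times in that of Timp4, and in 32.7% of all windows. Plaur, with the most, did not pass the test. The AP-1 letters TGANTCA (both strands) were found in the Plaur window alone of these 4, and in 6.75% of all windows. The TATA letters TATAAA (both strands) were in none of the 4 and in 12.4% of all windows. Letters of a motif describe a window and do not show binding.

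Plat (chr8:22757727-22782844, plus strand) had the smallest p of the 9 genes and ranked 33 of the 19971 genes tested by p. It stood at 6.68, 8.49 and 8.32 CPM in wild type and 19.0, 23.6 and 27.1 CPM in Tsk, from 120, 131 and 134 counts in the wild-type libraries and 367, 505 and 575 in Tsk. Every Tsk library was at least 2.24 times the highest wild-type library. The means were 7.83 ± 1.00 and 23.2 ± 4.03 CPM (SD, n = 3 each), a log2 fold change of 1.57 ± 0.17 (SE, adjusted p = 0.00632 by edgeR). Plat passed in each of the 6 fits that left out 1 library, at log2 fold changes from 1.45 to 1.69, and in each of the 9 fits with another scaling, filter or tool. Endothelial cells and nerves are known sources of this activator. Beside it, 10 endothelial markers summed to 182, 237 and 189 CPM in wild type and 328, 443 and 279 CPM in Tsk, with 3 of the 10 higher and all 10 above 0, and 10 Schwann cell and nerve markers to 341, 234 and 245 CPM in wild type and 352, 458 and 542 CPM in Tsk, with 2 of the 10 higher and 9 above 0. Both lists were higher in every Tsk library, as was the fibroblast list above. Plat was lowest in wild-type replicate 1 and highest in Tsk replicate 6, as was the fibroblast sum. The endothelial sum was also lowest in wild-type replicate 1 but highest in Tsk replicate 5. The nerve sum was also highest in Tsk replicate 6 but lowest in wild-type replicate 2. The part of these lists in the Plat result was not tested.

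The other activator, its receptor and the inhibitor did not pass. Plau (chr14:20836660-20843385, plus strand) stood at 14.4, 29.1 and 16.8 CPM in wild type and 17.6, 23.3 and 21.7 CPM in Tsk, with wild-type replicate 2 the highest of all, and its log2 fold change was 0.06 ± 0.26 (SE, adjusted p = 0.932 by edgeR). Without wild-type replicate 2 it was 0.43 (edgeR adjusted p = 0.306). Plaur (chr7:24462484-24475968, plus strand) held 44, 49 and 52 counts in the wild-type libraries and 62, 46 and 89 in Tsk, or 2.45, 3.17 and 3.23 CPM and 3.21, 2.15 and 4.19 CPM. Its lowest and highest libraries were both Tsk, and the log2 fold change was 0.11 ± 0.28 (SE, adjusted p = 0.87 by edgeR). Serpine2 (chr1:79794197-79861180, minus strand) stood at 46.5, 81.6 and 63.4 CPM in wild type and 64.3, 58.8 and 62.2 CPM in Tsk. The 3 Tsk values all fell within the wild-type range, and the log2 fold change was -0.05 ± 0.19 (SE, adjusted p = 0.927 by edgeR), which turned to 0.26 with library totals alone. When 1 library was left out, Plau reached -0.11 without wild-type replicate 1, Plaur -0.14 without Tsk replicate 6 and Serpine2 0.18 without wild-type replicate 2, each a change of sign. These p-values do not show that the levels were equal. The 10 macrophage markers, of a cell type known to carry the urokinase receptor, summed to 343, 242 and 332 CPM in wild type and 358, 463 and 866 CPM in Tsk, with 8 of 10 above 0 and none called. Their mean log2 CPM overlapped between the groups, and their part in the Plaur values was not tested.

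**Figure D2:**
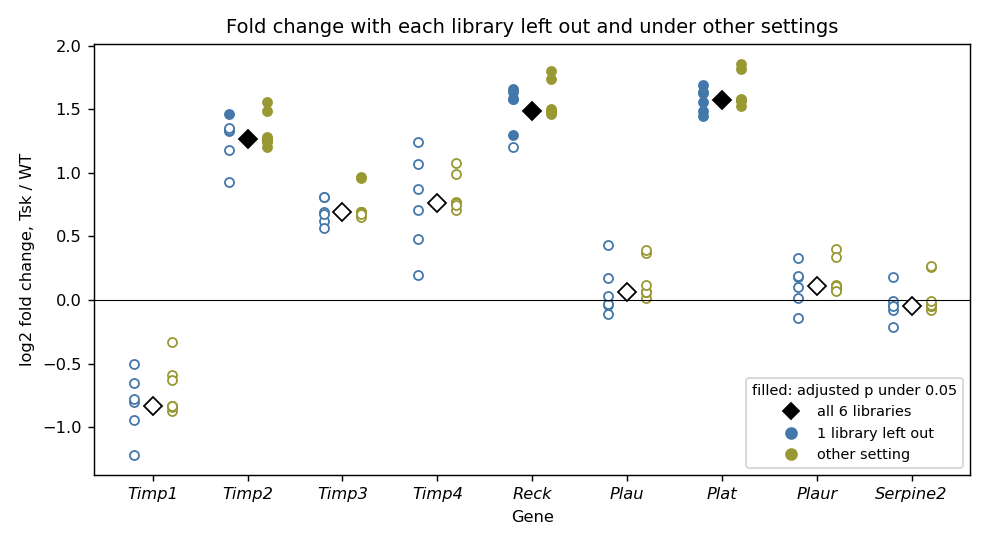
Log2 fold change (Tsk over wild type) of the 9 genes in all 6 libraries (black diamonds), with 1 library left out (blue) and under 9 other scalings, filters and tools (olive); filled symbols have an adjusted p under 0.05. Each symbol of Plat is filled, those of Reck and Timp2 are filled in 4 and 1 of the 6 fits with a library left out, and Plau, Plaur and Serpine2 lie on both sides of 0.

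Levels were compared between genes per kilobase of exon, using the union of GENCODE M21 exons. That union pools the exons of every annotated transcript and can be longer than the transcripts present. The order of the genes rests on it. In wild type, Timp2 was the most abundant at 32.7 ± 4.47 CPM per kb, followed by Timp3 at 21.4 ± 2.98 (SD, n = 3 each). Timp2 lay above Timp3, and Timp3 above the next, without overlap. The order of Timp2 and Timp3 follows from their exon lengths of 3.896 and 8.144 kb. In CPM, Timp3 was the higher in each wild-type library, at 168, 202 and 155 against 107, 138 and 137. It was also the higher in Tsk replicates 4 and 5, at 231 and 327 against 216 and 268 CPM. In Tsk replicate 6 it was the lower, at 286 against 434 CPM. Plau followed at 8.49 ± 3.33 and Serpine2 at 7.70 ± 2.12 CPM per kb, which overlapped. Timp1 stood at 4.07 ± 2.30, Reck at 1.45 ± 0.405, Timp4 at 1.28 ± 0.660, Plat at 1.25 ± 0.161 and Plaur at 1.13 ± 0.167 CPM per kb, and each of these overlapped its neighbour in the order. In Tsk the first 4 places were the same, with Timp2 at 78.6 ± 29.2, Timp3 at 34.6 ± 5.88, Plau at 8.81 ± 1.25 and Serpine2 at 7.45 ± 0.335 CPM per kb. Reck and Plat came next at 4.05 ± 1.29 and 3.72 ± 0.646, overlapping each other, and Plat lay wholly above Timp1 at 2.29 ± 0.269. Timp4 at 2.15 ± 1.24 overlapped Timp1, Plaur at 1.22 ± 0.389 and, through Tsk replicate 5 at 3.52, Reck and Plat. Reck and Plat were thus placed 6 and 8 in wild type and 5 and 6 in Tsk.

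The summed level of the 4 TIMP genes was 53.8, 63.5 and 61.1 CPM per kb in wild type and 87.9, 114 and 150.3 in Tsk. Timp2 made up 51.2, 55.6 and 57.6% of it in wild type and 63.2, 60.0 and 74.1% in Tsk, with every Tsk share above every wild-type share. The Timp3 share was 38.3, 39.0 and 31.0% in wild type and 32.3, 35.0 and 23.4% in Tsk, lowest in Tsk replicate 6 and overlapping between the groups. Timp1 made up 9.21, 2.30 and 9.50% in wild type and 2.46, 1.84 and 1.73% in Tsk. Shares of one sum are tied to each other, so a rise of Timp2 lowers the rest. Their sizes also rest on the exon union lengths.

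**Figure D3:**
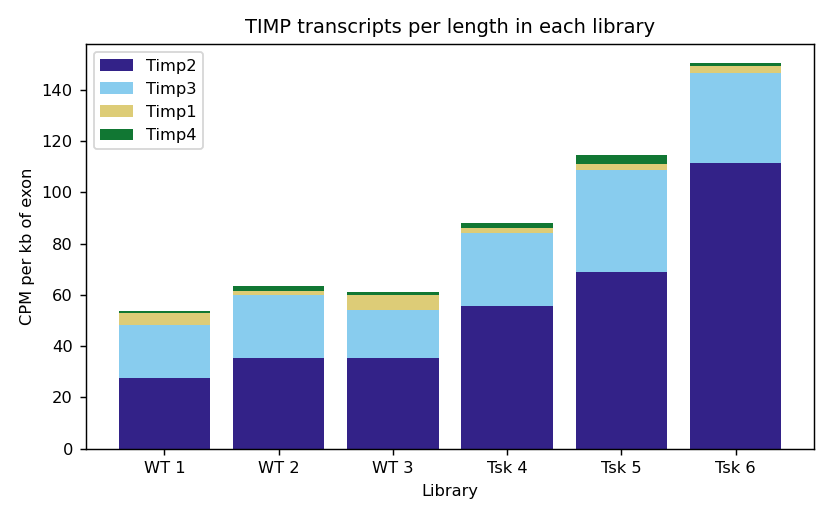
Summed level of the 4 TIMP genes in each library, in CPM per kilobase of exon, stacked by gene. The sum lies between 53.8 and 63.5 in wild type and between 87.9 and 150.3 in Tsk, and Timp2 and Timp3 fill most of each bar.

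Plat made up 14.9, 9.96 and 15.8% of the summed level of the activators Plat and Plau per length in wild type and 29.1, 27.7 and 32.1% in Tsk. These shares did not overlap, while the sum itself did, at 7.16, 13.7 and 8.42 CPM per kb in wild type and 10.5, 13.6 and 13.5 in Tsk. Per length, urokinase was the higher activator transcript in all 6 libraries, which rests on exon unions of 6.241 kb for Plat and 2.367 kb for Plau. In CPM, Plat was above Plau in each Tsk library, at 19.0, 23.6 and 27.1 against 17.6, 23.3 and 21.7. The lengths of the transcripts present were not measured, so which activator was more abundant is not settled. Serpine2 stood 5.24, 7.24 and 5.74 times as high as Plat per length in wild type and 2.55, 1.88 and 1.73 times in Tsk. No test was made on these ratios, since 3 samples against 3 cannot reach an exact two-sided permutation p below 0.1.

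The targets of the inhibitors were read from a list of 30 metalloproteinase genes, of which 22 had enough counts to be tested. Of these, 4 rose, namely Adamts5, Mmp23, Mmp14 and Adam15, and none fell, beside 2.72% and 0.696% of all genes. The median log2 fold change of the 22 was 0.29, against -0.03 over all genes tested. By an unadjusted edgeR p under 0.05, 7 of the 22 were higher and 2 lower, beside 12.1% and 7.94% of all genes, and DESeq2 called 6 higher and 1 lower, beside 5.79% and 2.18%. Leaving out wild-type replicate 2, wild-type replicate 3 or Tsk replicate 6 gave 2 called genes each. Mmp14, the membrane protease that TIMP-2 and RECK bind, stood at 47.7, 35.3 and 61.1 CPM in wild type and 110.0, 83.9 and 151 CPM in Tsk, a log2 fold change of 1.26 ± 0.26 (SE, adjusted p = 0.0378 by edgeR). Its groups did not overlap, but it passed only without Tsk replicate 5 among the 6 fits that left out 1 library. Its adjusted p in the other 5 ran from 0.0727 to 0.0914. Mmp2, the gelatinase activated by MMP-14, stood at 45.0, 79.9 and 76.2 CPM in wild type and 116, 114 and 215 CPM in Tsk without overlap, a log2 fold change of 1.15 ± 0.30 that did not pass (SE, adjusted p = 0.0828 by edgeR) but passed in 3 of 9 other fits. Timp2 stood 3.43, 5.96 and 3.43 times as high as Mmp14 per length in wild type and 3.01, 4.88 and 4.39 times in Tsk, which overlapped. Against Mmp2 the ratio was 2.06, 1.49 and 1.56 in wild type and 1.62, 2.03 and 1.75 in Tsk, which overlapped too.

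Adamts5, a protease of proteoglycans that TIMP-3 blocks, rose from 16.2, 20.2 and 19.3 to 48.4, 66.7 and 68.0 CPM, a log2 fold change of 1.72 ± 0.17 (SE, adjusted p = 0.00416 by edgeR), and passed in each fit that left out 1 library. Timp3 stood 13.7, 13.2 and 10.6 times as high as Adamts5 per length in wild type and 6.34, 6.49 and 5.59 times in Tsk, so the Tsk ratios lay below every wild-type ratio. The membrane protease gene Mmp23 rose by 2.10 ± 0.30 (log2 fold change ± SE, edgeR adjusted p = 0.0134) from 44, 36 and 50 counts in wild type to 158, 191 and 353 in Tsk. Adam15, a membrane metalloproteinase with a disintegrin domain, rose from 39.0, 43.7 and 45.2 to 60.6, 73.5 and 88.7 CPM, by 0.80 ± 0.16 (log2 fold change ± SE, edgeR adjusted p = 0.0315). Mmp23 did not pass without wild-type replicate 3, at 2.24 (edgeR adjusted p = 0.0608). Adam15 did not pass without wild-type replicate 2 or 3 or without Tsk replicate 5 or 6, at log2 fold changes of 0.83, 0.86, 0.81 and 0.65. Among the most abundant genes that did not pass, the sheddases Adam10 and Adam17 stood at 0.29 ± 0.13 and 0.15 ± 0.11 and Adamts1 at 0.08 ± 0.17 (log2 fold change ± SE). Mmp11 and Mmp13 were singled out after their values were seen. Mmp11, a stromal metalloproteinase, stood at 4.34, 5.38 and 15.7 CPM in wild type and 44.6, 26.3 and 65.3 CPM in Tsk, a log2 fold change of 2.42 ± 0.53 that did not pass (SE, adjusted p = 0.0569 by edgeR). It passed in 6 of the 9 fits with another scaling, filter or tool and in 2 of the 6 that left out 1 library, where it ran from 2.07 without Tsk replicate 6 to 3.24 without wild-type replicate 3. The collagenase gene Mmp13 held 14, 43 and 33 counts in the wild-type libraries and 11, 2 and 7 in Tsk (edgeR adjusted p = 0.0686), and passed in 4 of the 8 other fits that tested it and without wild-type replicate 1. Over the 23 MMP genes of the list, the summed level per length was 47.7, 55.4 and 64.9 CPM per kb in wild type and 95.9, 82.6 and 147 in Tsk. The summed TIMP level was 1.13, 1.15 and 0.942 times that sum in wild type and 0.916, 1.39 and 1.02 times in Tsk, which overlapped.

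A second list held 20 further genes of the plasminogen system (substrate, surface binding proteins, clearance receptors and inhibitors), of which 14 could be tested. Of the 14, 1 rose and none fell, with a median log2 fold change of 0.10, against -0.03 over all genes tested. By an unadjusted edgeR p under 0.05, 5 of the 14 were higher and 2 lower, beside 12.1% and 7.94% of all genes, and DESeq2 called 4 higher and 1 lower, beside 5.79% and 2.18%. The 1 that rose was Thbd, the gene of thrombomodulin, the endothelial thrombin receptor, at 30.4, 26.4 and 31.0 CPM in wild type and 38.3, 51.5 and 47.5 CPM in Tsk (log2 fold change 0.64 ± 0.14, SE, edgeR adjusted p = 0.0472). The 1 of 14 stands beside 3.42% of all genes, and Thbd did not pass without wild-type replicate 2 or 3 or Tsk replicate 5 or 6, at adjusted p from 0.11 to 0.144 by edgeR. Thbd also did not pass with upper-quartile factors (edgeR adjusted p = 0.0543), by limma-voom (adjusted p = 0.0597) or without robust estimation (edgeR adjusted p = 0.0502), where Lrp1 was the 1 gene of the list that did (edgeR adjusted p = 0.0475). Lrp1, the endocytic receptor that clears activator and inhibitor complexes, stood at 383, 442 and 430.2 CPM in wild type and 634, 788 and 1050 CPM in Tsk. Its groups did not overlap, and its log2 fold change of 0.98 ± 0.23 (SE) did not pass (edgeR adjusted p = 0.0548). It passed in 6 of the 9 fits with another scaling, filter or tool (adjusted p of 7.06e-05 by DESeq2 and 0.0494 by edgeR with RLE factors as the smallest and largest of the 6), and in 1 of the 6 that left out 1 library, without wild-type replicate 1, at 0.94 (edgeR adjusted p = 0.0442). The other abundant members were Anxa2, which binds plasminogen and its activator at the cell surface, at -0.04 ± 0.20, the clearance receptor Vldlr at -0.68 ± 0.25 and the plasminogen-binding enolase Eno1 at 0.21 ± 0.27 (log2 fold change ± SE). None of these passed, and Anxa2 turned to 0.21 with library totals alone. Mrc2 and Serpinb2 were singled out after their values were seen. Mrc2, a collagen uptake receptor that associates with the urokinase receptor, stood at 1.08 ± 0.29 (edgeR adjusted p = 0.0873) with Tsk wholly above wild type, and passed in 3 of 9 other fits. Serpinb2, an inhibitor of both activators, stood at -0.75 ± 0.21 (edgeR adjusted p = 0.087) with Tsk wholly below wild type, and passed in 2 of 9. Plg, the gene of plasminogen itself, which the liver makes, held 0, 1 and 0 counts in the wild-type libraries and 1, 0 and 0 in Tsk and was not tested.

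**Figure D4:**
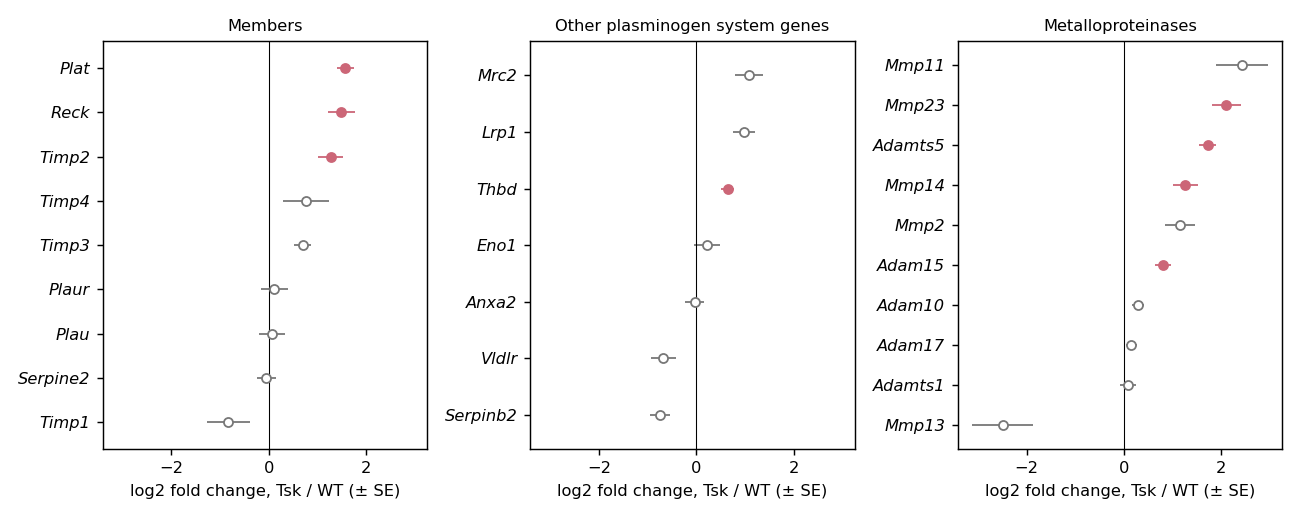
Log2 fold change (Tsk over wild type) ± SE of the 9 genes (left) and of the named genes among other plasminogen system genes (middle) and metalloproteinases (right). Filled red points have an edgeR adjusted p under 0.05, which holds for Plat, Reck, Timp2, Thbd, Mmp23, Adamts5, Mmp14 and Adam15.

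Among the 9 genes, the profiles of Timp2, Reck and Plat over the 6 libraries were the most alike. Profiles were log2(CPM + 0.5) less their own mean, and the likeness is the root mean square difference between 2 profiles. It was 0.169 for Timp2 and Reck, 0.192 for Reck and Plat and 0.224 for Timp2 and Plat, and 0.205 for Plau and Serpine2, of 36 pairs that reached 1.20. Timp2, Reck and Plat shared their lowest library, wild-type replicate 1, and their highest, Tsk replicate 6. Of 10296 genes with a mean log2 CPM of at least 3 compared with Plat, the nearest were Adamts5 at 0.104, the adhesion receptor Adgra2 at 0.130, the transcription factor Ebf1 at 0.138, the secreted guidance protein Slit3 at 0.157 and the heparan sulfatase Sulf1 at 0.159. Their log2 fold changes were 1.72 ± 0.17, 1.42 ± 0.22, 1.58 ± 0.19, 1.26 ± 0.19 and 1.69 ± 0.24 (SE). Genes whose groups are far apart resemble each other by this measure, and all values share the same 6 libraries.

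**Figure D5:**
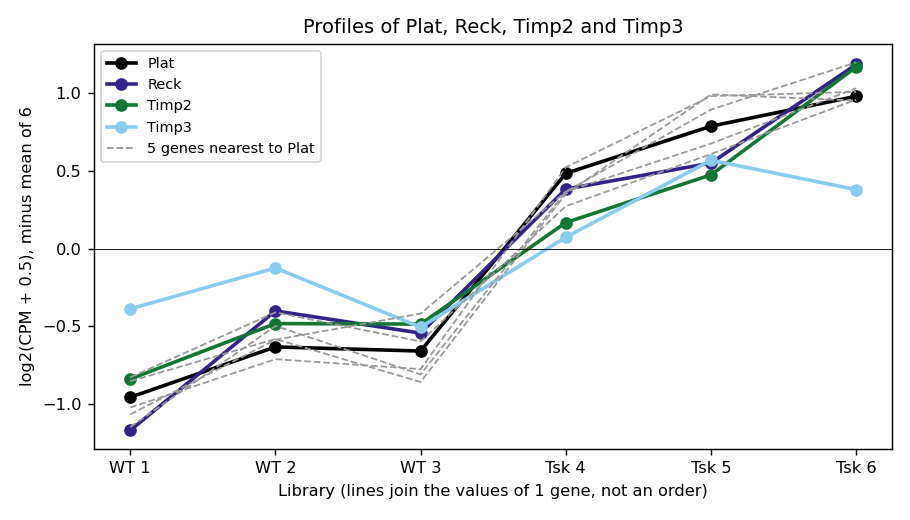
Log2(CPM + 0.5) less the mean of the 6 libraries for Plat, Reck, Timp2 and Timp3 (solid lines) and the 5 genes nearest to Plat (dashed grey). The 3 Tsk libraries lie above the 3 wild-type libraries for each line, and Timp3 spans the smallest range.

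Several of the 9 genes overlap others, and the strand setting of the counting is not given in the sources used here, although the library kit keeps strand. Timp1, Timp3 and Timp4 lie inside the synapsin genes Syn1, Syn3 and Syn2 on the opposite strand, as is known for this gene family. Syn1 held 18, 2 and 5 counts in the wild-type libraries and 26, 13 and 34 in Tsk, which is not small beside the counts of Timp1. Syn3 held 27, 17 and 18 counts in the wild-type libraries and 14, 21 and 23 in Tsk, against 2488 or more for Timp3. Syn2 held 22, 22 and 30 counts in the wild-type libraries and 31, 71 and 31 in Tsk, highest in Tsk replicate 5 like Timp4, and Gm17482, which also spans Timp4, held 0 in every library. Cep295nl lies inside Timp2 on the same strand and held 58, 78 and 82 counts in the wild-type libraries and 159, 171 and 341 in Tsk, highest in Tsk replicate 6 like Timp2. The short RNA gene Gm27265 inside Reck held 4 counts in wild-type replicate 2 and 0 in the other 5 libraries. Whether reads were shared between these genes and the 9 was not tested.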

How the data were processed

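Dorsal skin of 3 wild-type and 3 Tsk samples was profiled by RNA sequencing after ribosomal RNA depletion. Per the submitters' processing notes, bcl2fastq 2.19.1.403, STAR and Partek 7.0 were used on mm10. How reads were assigned to genes (models, strand, rule) is not given in the sources used here. Files deposited by the authors hold expected counts per gene, 34.8 to 37.3% of them not whole per library, which were rounded. The CPM values deposited by the authors were within 0.312% of the CPM recomputed from the counts for values above 1 CPM and served in 1 alternative. The deposited TMM signal was used only to check its ratio to CPM, and the deposited TPM not at all. Gene ends are 1 base past the last base in the files and were reduced by 1, after which symbol, strand and span of 52904 of 55291 genes matched GENCODE M21.

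The tests used edgeR 4.0.16 under R 4.3.3 (TMM factors, quasi-likelihood F-test with robust estimation, minimum count 10, minimum total 15), leaving 19971 genes. The mean TMM factor was 0.911 ± 0.104 (SD, n = 3) for wild type and 1.10 ± 0.0349 (SD, n = 3) for Tsk. Each log2 fold change divided by √F gave its SE. DESeq2 1.42.0 and limma 3.58.1 were alternatives, with other scalings and filters and each library left out. The members and lists were chosen with earlier results of these data known. Named genes were the 9, Fbn1, list genes past the threshold, the 4 most abundant of each list that did not pass, genes overlapping a member and the 5 profiles nearest to the member with the smallest p. In simulated Tsk against wild-type counts on 19642 genes, 47.5% of 2-fold and 90.9% of 4-fold changes were recovered, with 7.43% of calls false. The simulated rises and falls were equal in number and genes varied independently, whereas the calls here were 544 higher and 139 lower. Fewer genes were changed in the simulation than the 683 called here. These rates need not hold for the real comparison. Reads carry no molecular identifiers, so counts are not independent molecules.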

Additional observations from a re-analysis of the deposited data

How the results depend on the processing

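Over all genes 683 (544 higher, 139 lower) were called, against 1791 (1695 higher, 96 lower) with library totals alone, 1157 (844 higher, 313 lower) without a filter, 1592 (1156 higher, 436 lower) by DESeq2, 1887 (1787 higher, 100 lower) by limma-trend on the deposited CPM, and 63 to 1381 with 1 library left out. It was 63 without wild-type replicate 3, 328 without wild-type replicate 2, 402 without Tsk replicate 5, 388 without Tsk replicate 6 and 1381 (763 higher, 618 lower) without wild-type replicate 1. Among the 9 members the count was 3 or 4 under each other scaling, filter or tool and 1 to 3 with 1 library left out. Other plasminogen genes numbered 1, against 5 with library totals alone, 5 by limma-trend, 5 by DESeq2, 3 without a filter, 2 with RLE factors, 0 with upper-quartile factors and 0 by limma-voom (7 with an unadjusted p under 0.05 in each of the last 2), and 0 to 2 with 1 library left out. Metalloproteinases numbered 4, against 7 with library totals alone, 7 by DESeq2 and 7 by limma-trend, and 2 to 4 with 1 library left out. The median log2 fold change of all genes was 0.25 with library totals alone and by limma-trend, against -0.03 with TMM. The causes were not tested.

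Changes of sign were limited to members and named genes that did not pass in any of these fits. Plau was -0.11, -0.04 and -0.03 without wild-type replicate 1, wild-type replicate 3 and Tsk replicate 5 (up to 0.43 with another library left out), and Plaur -0.14 without Tsk replicate 6 (up to 0.33). Serpine2 was 0.26 with library totals alone, 0.27 by limma-trend and 0.18 without wild-type replicate 2. Anxa2 was 0.21 and 0.25 under the same scalings, 0.16 without wild-type replicate 1 and 0.07 when Tsk replicate 6 was left out (down to -0.16 with another left out). Eno1 was -0.21 without Tsk replicate 5 (up to 0.43), and Adamts1 -0.01 and -0.04 when wild-type replicate 1 and Tsk replicate 4 were left out. No paired analysis was possible because the groups share no replicate number. Timp1, Plaur and Mmp13 rest on under 100 counts a library, which limits their precision. With a minimum count of 50, Timp1 was not tested.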
